A study of Mus musculus with 12 samples.

Results

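The genes described here are the amino acid transporters of 6 solute carrier families, Slc1a, Slc3a, Slc7a, Slc36a, Slc38a and Slc43a, taken as every row of the deposited tables whose symbol starts with a family name followed by a digit. This gave 33 of 15767 genes, and 23 of the 33 had enough counts to be tested, among 13014 tested genes in all. One of the 33, Slc7a6os, meets the rule by its symbol only: it is a gene on the opposite strand of Slc7a6 and not a transporter. RNA sequencing covered 12 libraries of Neuro-2a, a mouse neuroblastoma cell line of wild-type genotype, 4 each transfected with a miR-155 mimic, a miR-155 inhibitor or a control small RNA (miR-Con). The RNA Fit reagent was used without serum or antibiotics in every group, full medium was given back after 4 h, and the cells were kept until day 2. Libraries of each group carry the replicate numbers 1 to 4, and the labels state neither what a number marks nor that replicates were separate cultures, so p-values measure only how far these samples spread, and that spread may be technical. miR-155 itself was not measured in these tables.

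Amino acids cross membranes through carriers that exchange one amino acid for another, co-transport it with sodium or protons, or let it diffuse. Slc3a2 encodes the CD98 heavy chain, which pairs with light chains of the Slc7a family, among them Slc7a5 (LAT1, for large neutral amino acids) and Slc7a11 (xCT, which takes up cystine in exchange for glutamate). When amino acids run short or the endoplasmic reticulum is stressed, the transcription factor ATF4 is translated and raises transcription of several carriers through amino acid response elements in their genes. Other carriers sit in the lysosome, where they release amino acids and inform the kinase complex mTORC1.

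Total counts ran from 60695388 to 74200532 per library, and 13669 to 13836 genes had at least 1 count. The 33 genes together took 0.656 to 0.671% of all counts in the 3 libraries numbered 4, against 0.727 to 0.810% in the 9 numbered 1 to 3. The line's labelled origin was checked with 18 neuroblastoma markers. Of these, Hand2 (1521 to 1980 TPM), Phox2a (703 to 1078 TPM) and Chgb (2317 to 3184 TPM) were abundant in every library, while Nefl and Nefm had at most 13 and 8 counts. Summed levels of the markers of other cell types were at most 5.18 TPM for astrocytes and oligodendrocytes, 7.47 TPM for epithelial cells, 3.36 TPM for endothelial cells, 1.73 TPM for fibroblasts and 0.632 TPM for immune cells. In libraries numbered 4 against 1 to 3, 2 of 15 tested neuroblastoma markers were called higher and 8 lower, where 20.4% of all tested genes were higher and 21.1% lower. Of the other markers, fibroblast Pdgfra (0.87 on the log2 scale, 1 of 3 tested) and endothelial Pecam1 (0.53, 1 of 2 tested) were called higher in the same comparison, both at low levels, and 0 of the astrocyte, oligodendrocyte, epithelial and immune markers were called. Their part in the results by number was not tested.

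The sequence through which miR-155 recognises messages, and the matches to it in the transporters, are shown because they mark which of these genes carry a match to it. The mature mouse miR-155 below is RefSeq's, from GRCm38.p6, with its seed, bases 2 to 8, in capitals.
mmu-miR-155-5p: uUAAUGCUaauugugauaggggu
The longest annotated 3' UTR of each gene (GENCODE M21, GRCm38) was searched on the transcript strand for an 8mer match (AGCATTAA), a 7mer-m8 match (AGCATTA) and a 7mer-A1 match (GCATTAA), each gene's longer match taking the place of the shorter ones inside it. Of the 33 genes, 5 had at least 1 match (15.2%), against 1979 of 15419 genes with a 3' UTR (12.8%). The matches in the 4 tested genes are printed with the matching bases in capitals.
Slc38a2, 8mer at base 2191 of 2735: tatagagcAGCATTAAtccattaa
Slc7a1, 8mer at base 3722 of 5030: ggctcccaAGCATTAAggaatctt
Slc38a6, 7mer-m8 at base 1387 of 3519: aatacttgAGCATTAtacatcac
Slc36a4, 7mer-m8 at base 500 of 4983: accgtgcaAGCATTAgatagttc
The fifth gene, Slc38a4, had 2 matches and too few counts for a test. A match is a run of letters and not a shown binding site.

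Promoters are shown because the ATF4-responsive carriers are known for a short response sequence. Windows of 250 bases before to 50 after each start site (RefSeq, GRCm38.p6) were held for 25 of the 33 genes, 34 windows in all. The core TGATGNAA, searched on both strands, was found in 4 of the 34 windows (11.8%), against 1304 of 32851 windows of all genes (3.97%), and in 3 genes, Slc7a11, Slc1a4 and Slc7a7. Of the ATF4-responsive carriers listed further below, Slc7a11 and Slc1a4 had the core in a held window, and Slc7a7 is not on that list. The other listed carriers may have had no held window, and bases outside the windows were not searched, so their lack of the core is not shown. A core of Slc7a7 was counted in overlapping windows, so the 4 windows are not all separate. The core of Slc7a11 and of Slc1a4 is printed in capitals within its neighbouring bases, 5' to 3' on the strand of the gene.
Slc7a11, chr3:50443662-50443689, minus strand: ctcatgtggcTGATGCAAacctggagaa
Slc7a11, chr3:50443643-50443670, minus strand: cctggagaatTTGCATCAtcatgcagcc
Slc1a4, chr11:20332700-20332727, minus strand: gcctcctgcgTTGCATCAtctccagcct
In Slc7a11 the cores began 66 and 47 bases before the start site, the second in reverse orientation. In Slc1a4 a reversed core began 4 bases before it.

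The 23 tested genes spanned more than 3 orders of magnitude in level. Slc7a5 stood far above the others, with a mean of 3378 TPM (range 3050.2 to 3719 over 12 libraries), 23rd of all genes in the table. Slc3a2, its partner, followed at 638 TPM (564 to 675), and Slc1a5 (ASCT2, a sodium-dependent exchanger of glutamine and other neutral amino acids) at 495 TPM (453 to 537). Per library, the ratio of Slc7a5 to Slc3a2 in TPM stayed between 4.94 and 5.51, and Slc7a5 alone made up 52.7 to 56.8% of the summed TPM of the 33 genes. Levels between genes are compared in TPM, which is per length, throughout.

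A second tier of 6 genes lay above 100 TPM, with uptake carriers of small neutral and of cationic amino acids and lysosomal carriers among them. It held Slc38a2 (SNAT2, sodium-coupled neutral amino acid uptake) at 306 TPM, Slc1a4 (ASCT1, an exchanger of alanine, serine, cysteine and threonine) at 253 TPM and Slc7a1 (CAT1, arginine and lysine uptake) at 251 TPM. Slc7a14, a lysosomal relative of the cationic carriers, averaged 164 TPM, Slc38a1 (SNAT1) 163 TPM and Slc38a7 (SNAT7, a lysosomal glutamine exporter) 114 TPM. These 6 overlapped in part: the ranges of Slc1a4 (179 to 295 TPM) and Slc7a1 (196 to 285 TPM) cover each other, as do those of Slc7a14 (136 to 191 TPM) and Slc38a1 (135 to 189.6 TPM).

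Of the remaining tested genes 7 averaged 10 to 100 TPM and 7 less than 10. The middle set ran from Slc7a6 (y+LAT2, another CD98 light chain) at 94.3 TPM through Slc36a1 (PAT1, a proton-coupled carrier of small amino acids on lysosomes) at 82.5 TPM, Slc38a10 at 56.8 TPM, Slc7a3 (CAT3, a cationic carrier) at 51.6 TPM and Slc7a6os at 40.3 TPM to Slc7a11 at 20.8 TPM and Slc36a4 (PAT4) at 19.9 TPM. The low set held Slc38a9, the lysosomal arginine sensor of mTORC1, at 8.24 TPM, Slc38a6 at 7.51 TPM, Slc43a2 (LAT4, a facilitative carrier of branched-chain amino acids) at 5.08 TPM, Slc7a7 (y+LAT1) at 3.25 TPM, Slc43a1 (LAT3) at 2.70 TPM, Slc38a3 (SNAT3, a glutamine carrier) at 2.69 TPM and Slc1a7, a glutamate transporter best known from the retina, at 1.29 TPM. Summed by family, Slc7a reached 3610 to 4316 TPM per library, Slc3a 564 to 676, Slc1a 634 to 833, Slc38a 532 to 758, Slc36a 78.4 to 115 and Slc43a only 7.02 to 8.91.

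The other 10 genes were close to unmeasured. Slc1a1, Slc3a1, Slc7a4, Slc7a8, Slc36a2, Slc38a4, Slc38a5, Slc38a8, Slc38a11 and Slc43a3 had at most 23 counts in any library and between 6 (Slc1a1) and 80 (Slc38a4) over all 12. They include the neuronal glutamate transporter Slc1a1 and Slc3a1, the alternative heavy chain known from kidney and intestine, so Slc3a2 was the single heavy chain found at a testable level. Small values in the count table were not spread like tallies of single reads, with 2801 entries of 4 against 783 entries of 1 over all genes and libraries, so how many reads stand behind such a value is unknown.

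**Figure D1:**
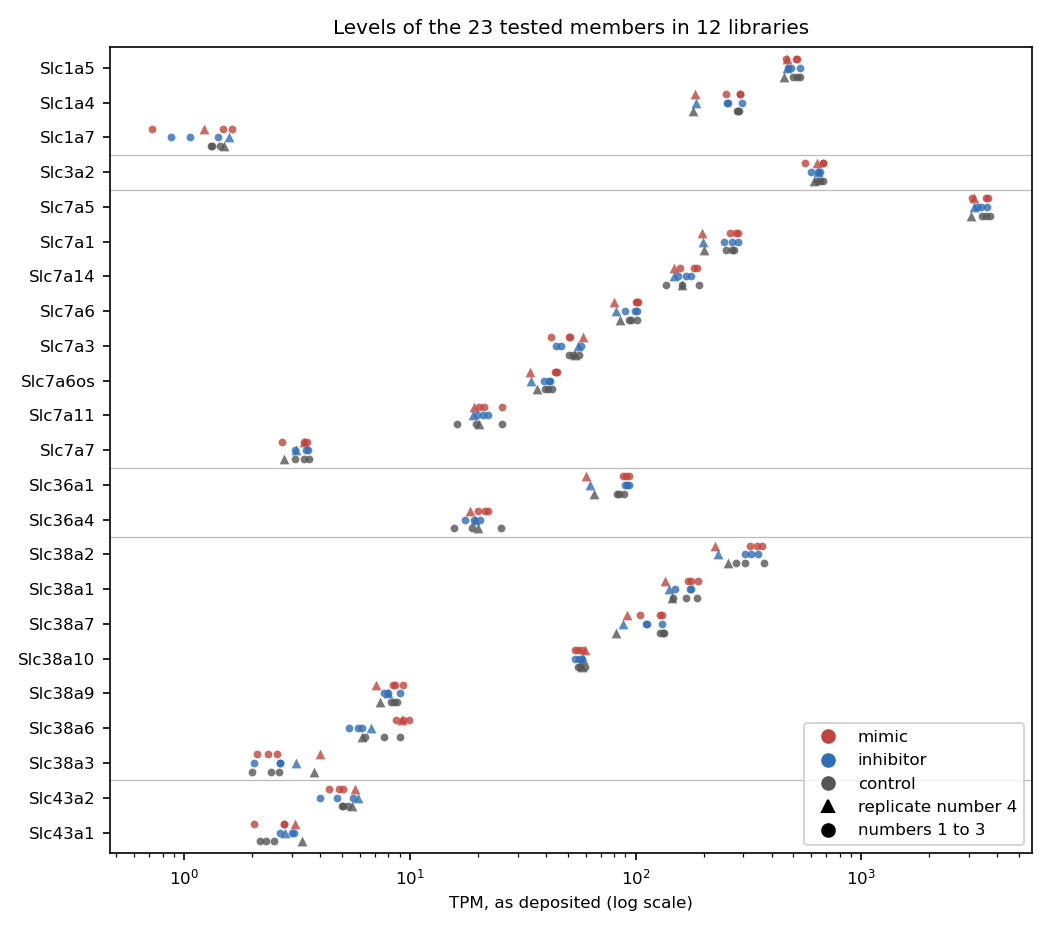
Deposited TPM (log scale) of the 23 tested genes in 12 libraries, grouped by family; colour gives the treatment and triangles mark replicate number 4. Slc7a5 lies at 3050.2 TPM or more in every library and Slc1a7 lowest. For Slc1a4, Slc7a1, Slc7a6, Slc7a6os, Slc36a1, Slc38a1, Slc38a2 and Slc38a7 the triangles lie left of all circles, and for Slc38a3 right of them.

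The first comparison asked whether the miR-155 mimic or inhibitor changed transporter levels. None of the 23 genes was called, meaning a Benjamini-Hochberg adjusted p under 0.05 over all tested genes in edgeR's quasi-likelihood test, when mimic was set against control, inhibitor against control, or mimic against inhibitor. The background was the same, 0 of 13014 genes (0%) in each. At an unadjusted p under 0.05, 1 of the 23 genes passed in mimic against control (71 of all genes, 0.546%). In inhibitor against control 0 passed (67, 0.515%), and in mimic against inhibitor 1 (77, 0.592%). The 1 was Slc38a6 both times. An even spread of p would put a share of 0.05 of all genes there. The test was thus conservative, and 0 calls do not show equal levels. DESeq2 called 0 of the 33 genes in each comparison, and 3, 1 and 6 of all genes. The mimic and inhibitor comparisons share the 4 control libraries, and mimic against inhibitor reuses both treated groups.

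Outside Slc38a6 the estimates lay near 0. Log2 fold changes of the other 22 genes ran from -0.18 to 0.053 in mimic against control, from -0.19 to 0.16 in inhibitor against control and from -0.13 to 0.070 in mimic against inhibitor. Medians over the 23 were 0.0048, -0.022 and 0.0039, beside medians over all tested genes of -0.0068, -0.0099 and 0.0024. The 95% interval lay within 0.5 of 0 on the log2 scale for 20, 19 and 19 genes. In this model, with group as the only term, differences shared by libraries of 1 number count as spread within groups: the SE of Slc1a4 was 0.18 here and 0.064 in the comparison of number 4 with 1 to 3, whose model holds the number. The widest intervals belonged to low genes such as Slc1a7 (-0.73 to 0.38 in mimic against control).

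The genes with 8mer matches to the miR-155 seed differed little between treatments. Slc38a2 averaged 532 ± 92.7 CPM in mimic, 523 ± 81.4 in inhibitor and 523 ± 73.3 in control libraries (SD, n = 4 each); CPM here is the TMM-scaled share of a library's counts. Its log2 fold change was 0.024 in mimic against control (95% interval -0.30 to 0.34) and 0.0011 in inhibitor against control (-0.32 to 0.32). Slc7a1 averaged 589 ± 82.2 CPM in mimic, 589 ± 82.3 in inhibitor and 587 ± 78.4 in control libraries, with 0.0048 (-0.28 to 0.29) in mimic against control. The spread within each group was far wider than any difference between the means. It includes the libraries numbered 4, which lay apart in both genes. Slc7a1 had 469 to 474 CPM there, against 594 to 668 in numbers 1 to 3, whose SD was 23.6. Slc38a2 had 397 to 439 CPM there, against 507 to 617, with an SD of 37.1 in numbers 1 to 3. Slc36a4, with a 7mer match, was at 0.014 (-0.22 to 0.24).

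The ATF4-responsive carriers gave the same picture across treatments. Of the 8 genes on that list (Slc7a11, Slc7a5, Slc3a2, Slc7a1, Slc7a3, Slc38a2, Slc1a4 and Slc1a5), 0 were called in each comparison, and the median log2 fold changes were -0.053, -0.024 and -0.014. Slc7a5 averaged 2277 ± 168 CPM in mimic, 2319 ± 134 in inhibitor and 2384 ± 269 in control libraries. Slc7a11 averaged 60.8 ± 6.38, 59.0 ± 3.13 and 58.6 ± 9.31 CPM, in the same order of groups. Slc3a2 averaged 918 ± 79.7 CPM in mimic, 935 ± 49.3 in inhibitor and 949 ± 72.4 in control libraries. In each of the 3 genes all group means lay within 1 SD of one another.

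**Figure D2:**
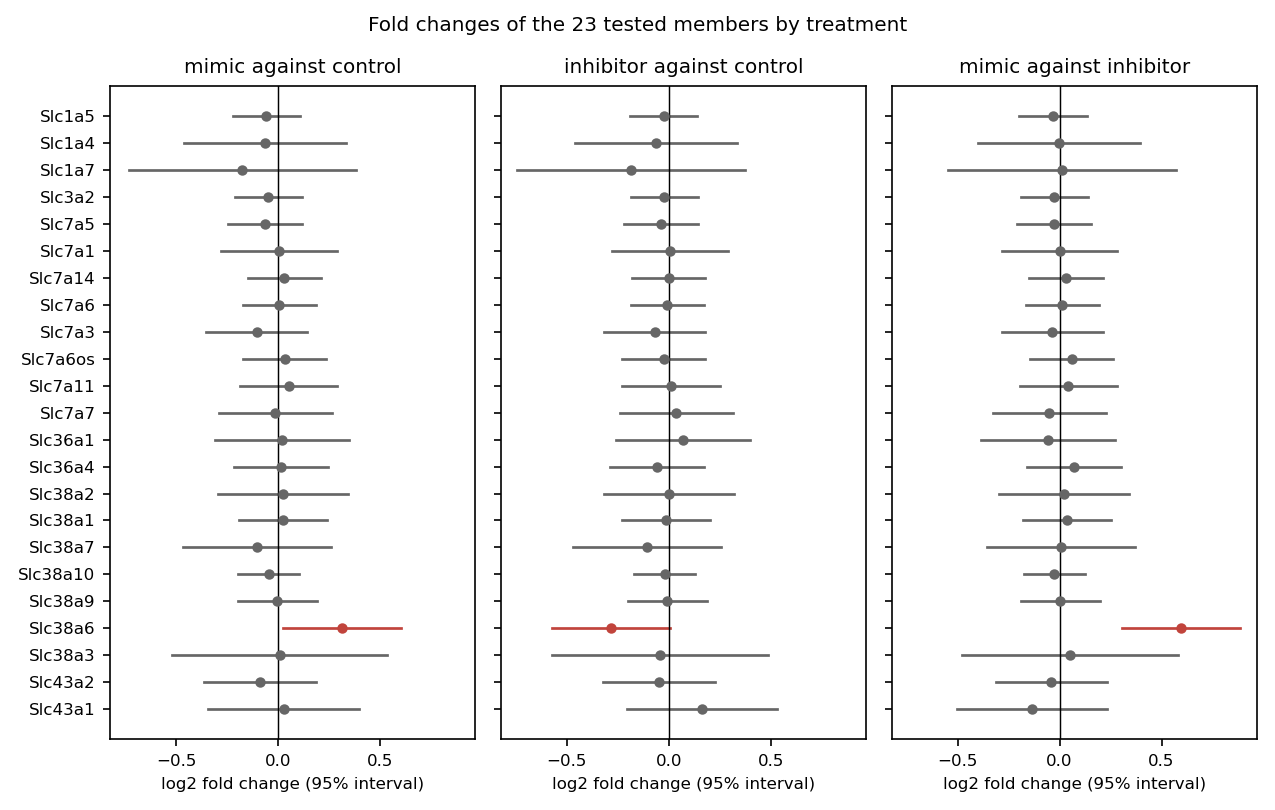
Log2 fold change (point) and 95% interval (line) of each tested gene from edgeR, for mimic and for inhibitor against control and for mimic against inhibitor. Slc38a6, in red, lies at 0.31, -0.28 and 0.60; the other 22 genes lie between -0.19 and 0.16 in every panel, and no gene passed the adjusted threshold.

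Slc38a6 (ENSMUSG00000044712), an SNAT family member expressed in brain whose transport role is less settled, is shown by itself. It had 17.3, 20.2, 19.7 and 19.8 CPM in mimic libraries 1 to 4. Inhibitor libraries 1 to 4 had 11.6, 12.7, 12.3 and 14.3 CPM, and control libraries 12.9, 17.0, 19.1 and 12.9 CPM. All 4 mimic libraries lay above all 4 inhibitor libraries, by at least 3.00 CPM, and the control libraries spread over both: numbers 1 and 4 were at the inhibitor level and numbers 2 and 3 near the mimic level. Deposited counts behind these values were 781 to 1465 per library.

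The means of Slc38a6 were 19.3 ± 1.33 CPM in mimic, 12.7 ± 1.12 in inhibitor and 15.5 ± 3.11 in control libraries (SD, n = 4 each). The mimic level was 1.51 times the inhibitor level, a log2 fold change of 0.60 (95% interval 0.31 to 0.89). Slc38a6 ranked 3 of 13014 genes by p in edgeR's test but had an adjusted p of 1.00. Over 20 alternative edgeR, DESeq2 and limma fits the log2 fold change was 0.55 to 0.66, and the lowest adjusted p was 0.065. Mimic against control gave 0.31 (0.025 to 0.60, adjusted p of 1.00), and inhibitor against control -0.28 (-0.57 to 0.0055, adjusted p of 1.00). The replicate numbers are not known to pair libraries, so ratios by number are not matched observations. Taken by number, mimic was above control at all 4 numbers, with ratios of 1.34, 1.18, 1.03 and 1.54. Inhibitor was below control at 3 of 4. Over all tested genes, 62 (0.476%) had every mimic library above every inhibitor library, and 112 (0.861%) had the groups apart in either direction. With the 3 libraries numbered 4 left out, the log2 fold change of mimic against inhibitor was 0.64, that of mimic against control 0.22 and that of inhibitor against control -0.42. In those 9 libraries the gene passed no adjusted threshold either. Inhibitor against control rests in part on control 3, without which it was -0.17. The 3' UTR of Slc38a6 carries the 7mer-m8 match printed above, a type found in 5.8% of all genes with a 3' UTR. The mean was above control with the mimic and below it with the inhibitor, and a link to the match was not tested. None of the 3 differences passed the correction.

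**Figure D3:**
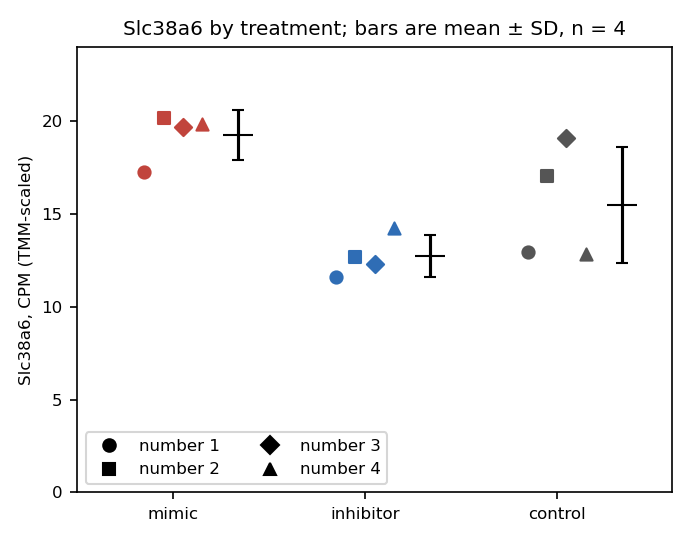
TMM-scaled CPM of Slc38a6 by treatment, 1 symbol per library with its shape giving the replicate number, and mean ± SD (n = 4) beside each group. Mimic libraries lie at 17.3 to 20.2, inhibitor libraries at 11.6 to 14.3, and control libraries at 12.9 to 19.1.

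The second comparison set the 3 libraries numbered 4, 1 from each treatment, against the 9 numbered 1 to 3, with treatment as a term in the model. The carriers Slc1a4, Slc36a1, Slc38a7, Slc38a2, Slc7a1, Slc38a1 and Slc7a6, and Slc7a6os, were lower in number 4, while the glutamine carrier Slc38a3 and the facilitative carrier Slc43a2 were higher. Relatives of similar role were not called, among them the neutral amino acid exchanger Slc1a5, the cationic carrier Slc7a3 and the lysosomal Slc7a14 (-0.12, edgeR adjusted p of 0.20) and Slc38a9 (-0.16, adjusted p of 0.083). Of the 23 genes 10 were called (43.5%), 8 lower (34.8%) and 2 higher (8.70%). Over all tested genes 5399 of 13014 were called (41.5%), 2749 lower (21.1%) and 2650 higher (20.4%), so the share of transporters called lies near the background. At an unadjusted p under 0.05 it was 12 of the 23, against 6514 of all (50.1%). DESeq2, which tested all 33, called 14, among 37.7% of all genes, and limma on log2(TPM + 1) called 10 of the 23, among 40.9%. The median log2 fold change was -0.10 over the 23 genes, beside -7e-05 over all genes. What the number marks is not stated, and a culture, a day or a library batch cannot be told apart here. In bulk RNA, a different mix of cells and a different level per cell cannot be told apart either.

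Slc1a4 had 234, 233 and 222 CPM in the mimic, inhibitor and control libraries numbered 4, against 304 to 381 (median 344) in the other 9. The 3 libraries lay below all others, and edgeR gave a log2 fold change of -0.58 (95% interval -0.72 to -0.44, adjusted p of 5.5e-05). Slc36a1 had 97.5, 101 and 103 CPM in number 4, against 133 to 149.8 (median 143), again without overlap. Its log2 fold change was -0.49 (-0.59 to -0.38, edgeR adjusted p of 2.8e-05), and Slc38a7, also a lysosomal carrier, was at -0.48 (-0.66 to -0.29, adjusted p of 0.0012), with 139, 132 and 121 CPM against 150.2 to 209 (median 185).

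Slc38a2 had 397, 405 and 439 CPM in number 4, against 507 to 617 (median 556) in numbers 1 to 3, a log2 fold change of -0.44 (-0.59 to -0.29, edgeR adjusted p of 0.00046). Slc7a1 had 470.3, 474 and 469 CPM in the libraries numbered 4 and 594 to 668 (median 626) in the others. It fell by 0.41 on the log2 scale (interval -0.51 to -0.31, edgeR adjusted p of 5.1e-05). In both genes number 4 lay below all other libraries whatever the treatment. Slc38a1 fell by 0.26 with 646 to 675 CPM in number 4, against 723 to 851 (median 803), which also left a gap between the groups.

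Smaller drops without overlap were seen in Slc7a6, with 155 to 159.7 CPM against 174 to 190.5 and a log2 fold change of -0.23, and in Slc7a6os, with 37.8 to 39.2 CPM against 43.1 to 48.7 and -0.25. Slc7a6os overlaps no exon of Slc7a6 in GENCODE M21, so the pair do not share annotated exon sequence there. The 2 higher genes were both low in level. Slc38a3 had 13.0, 10.1 and 11.9 CPM in the mimic, inhibitor and control libraries numbered 4, against 6.12 to 8.85 (median 7.72), all 3 above every other library, and rose by a log2 fold change of 0.63 (0.33 to 0.93, edgeR adjusted p of 0.0038). Slc43a2 had 22.5, 22.9 and 21.2 CPM, against 15.9 to 21.6 (median 18.7), with overlap, and its 0.24 (0.059 to 0.43, adjusted p of 0.038) was lost in limma on log2(TPM + 1) (adjusted p of 0.11) and in 7 of the 12 fits that left out 1 library. These were the fits without mimic 2, 3 or 4, inhibitor 1, 2 or 4, or control 3, with adjusted p from 0.0531 to 0.196.

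In CPM, 8 of the 23 genes had all 3 libraries numbered 4 below the other 9, where 2473 of all tested genes did (19%), and 1 had them above, where 2324 did (17.9%). Counting either direction, 4797 of all genes were apart (36.9%). The remaining 14 transporters overlapped. Among these, Slc7a5 had 2215, 2207 and 2085 CPM in number 4, against 2072 to 2716 (median 2400), and Slc3a2 had 947, 948 and 891 CPM against 802 to 1047 (median 959). The CD98 pair was not called, at -0.13 (-0.29 to 0.029, edgeR adjusted p of 0.17) for Slc7a5 and -0.0088 (-0.17 to 0.15, adjusted p of 0.93) for Slc3a2. In limma on log2(TPM + 1) Slc7a5 was called, at -0.15 with an adjusted p of 0.040.

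Slc7a11 had 56.3, 55.0 and 57.4 CPM in the mimic, inhibitor and control libraries numbered 4, against 49.1 to 71.4 (median 60.1), and a log2 fold change of -0.10 (-0.28 to 0.075, edgeR adjusted p of 0.33). Slc1a5 had 709, 699 and 662 CPM, against 663 to 832 (median 742), and -0.10 (-0.24 to 0.043, adjusted p of 0.24). Slc7a3 had 110.2, 104 and 98.5 CPM, against 75.9 to 105 (median 90.6), and 0.18 (0.0082 to 0.36, adjusted p of 0.087). In all 3 genes number 4 overlapped the other libraries, and Slc7a3 was called only in the fits without control 2 (adjusted p of 0.0042) or control 4 (adjusted p of 0.040). Of the 8 ATF4-responsive carriers, then, 3 were lower in number 4 (Slc1a4, Slc38a2 and Slc7a1), 0 were higher and 5 were not called, a share called that lies near the 41.5% of all tested genes. Slc7a11 and Slc1a4, the carriers whose promoter cores are printed above, were on different sides of the threshold. Slc7a7, which also has the core, was not called (-0.072, edgeR adjusted p of 0.66). Slc38a6, at -0.0072 (-0.24 to 0.23), had 19.8, 14.3 and 12.9 CPM in number 4, against 11.6 to 20.2, and the groups overlapped.

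**Figure D4:**
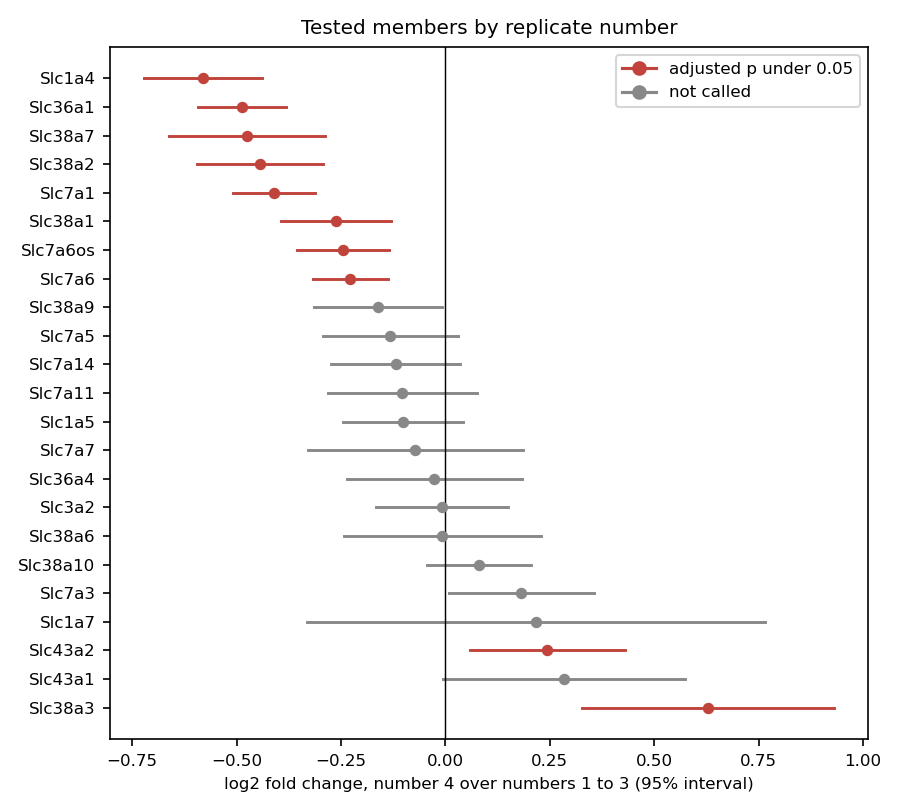
Log2 fold change (point) and 95% interval (line) of each tested gene in libraries numbered 4 against numbers 1 to 3, with treatment in the model; red marks an adjusted p under 0.05. Slc1a4 lies lowest at -0.58 and Slc38a3 highest at 0.63; 10 of 23 genes are red, 8 of them below 0.

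**Figure D5:**
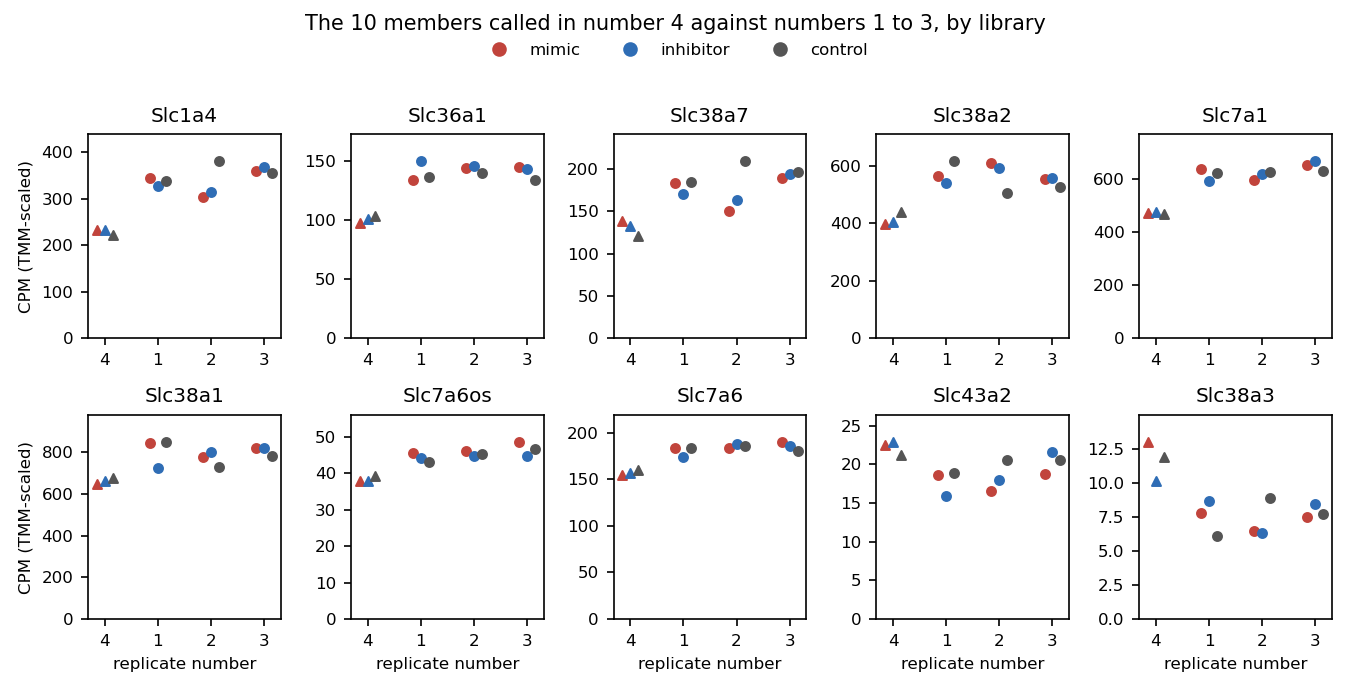
TMM-scaled CPM of the 10 called genes in all 12 libraries, by replicate number (number 4 first, as triangles) and treatment (colour). In all but Slc43a2 the 3 triangles lie outside the range of the 9 circles.

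Genes of related pathways outside these families were called between the same libraries. Of 24 tested genes of the ATF4 pathway outside transporters, 13 were called lower in number 4, 3 higher and 8 not called, with a median of -0.31, where 21.1% of all tested genes were lower and 20.4% higher. Atf3, a stress-induced transcription factor, was at -1.20, Sesn2, a leucine sensor, at -0.76, Chac1, which degrades glutathione, at -0.80, and Ppp1r15a, which restarts translation, at -1.60. Ddit4, an inhibitor of mTORC1, was higher at 0.68, and Atf4 itself (0.042, edgeR adjusted p of 0.51) and asparagine synthetase Asns (0.0044, adjusted p of 0.97) were not called. Summed TPM of this list was 11483 to 12075 in number 4, against 12464 to 14406 in numbers 1 to 3.

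Among 16 tested amino acid transporters of other families, 3 were higher in number 4, 5 lower and 8 not called, with a median of 0.070, a share called near the 41.5% of all tested genes. The mitochondrial glycine carrier Slc25a38 was at -0.73 and the mitochondrial carrier of branched-chain amino acids Slc25a44 at -0.61. The taurine transporter Slc6a6 was at 0.28. The vesicular glutamate transporter Slc17a7 was at 1.16, with a mean level of only 1.44 TPM over the 12 libraries. Of 32 genes of mTORC1 itself and of amino acid signalling upstream of it, 7 were higher, 10 lower and 15 not called. The median over the 32 was -0.016, and 41.5% of all tested genes were called. Itfg2 was at -0.66 and Mlst8 at -0.79, while Sesn1 was at 0.54 and the GTPase Rraga at 0.34. Of 16 genes of glutamine, glutamate and cystine use, 4 were higher, 1 lower and 11 not called, a share below that 41.5%, with glutaminase Gls2 at 0.44 and the aminotransferase Gpt2 at -0.37. In the 3 treatment comparisons 0 genes of these lists were called by edgeR, and 0 had an unadjusted p under 0.05. All 4 lists were chosen with earlier results of these libraries known, so their directions are no independent evidence.

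The E-box CACGTG, a palindrome bound by basic helix-loop-helix factors and searched for after the values were seen, was in 6 of the 34 transporter windows (17.6%), against 2349 of 32851 windows of all genes (7.15%). Among the called genes it was in the windows of the lysosomal carriers Slc36a1 and Slc38a7, whose stretches are printed with the E-box in capitals (RefSeq, GRCm38.p6).
Slc36a1, chr11:55204299-55204324, plus strand: aatggagcggCACGTGacctgggcta
Slc36a1, chr11:55204327-55204352, plus strand: gagccagcatCACGTGacagggcccg
Slc38a7, chr8:95853510-95853535, minus strand: gattcaggctCACGTGttacttgagt
The other windows with it were those of Slc1a7, Slc7a14 and Slc43a1, which were not called, and of Slc38a5, which was not tested. A match is a description of the letters only.

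As a further comparison by number, the libraries numbered 3 were set against numbers 1 and 2. Numbers 1 and 2 were not set against each other, so it cannot show that number 4 alone stood apart. None of the 23 genes and 0 of 13014 tested genes (0%) were called by edgeR, and 1 of the 23 and 282 of all (2.17%) had an unadjusted p under 0.05. That 1 was Slc7a3, with 93.5, 105 and 104 CPM in mimic, inhibitor and control libraries numbered 3, against 75.9 to 104 in numbers 1 and 2, with overlap, and a log2 fold change of 0.20 (edgeR adjusted p of 1.00). The count depends on a single library: without control 2, 3 of the genes (Slc1a4, Slc38a7 and Slc7a3) and 569 genes in all were called. DESeq2 called 139 of all genes (0.882%) and 1 of the 33, Slc7a4, which had 12 counts in mimic 3, 8 in control 4 and 0 elsewhere.

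A gene whose annotated exons overlap another gene's on the opposite strand is uncertain, since no source used here gives the strand setting of the counting. Of the tested genes this touches Slc7a7, which overlaps Oxa1l, and Slc38a9, Slc38a10 and Slc43a2, whose partners were not analysed here. Of the called genes only Slc43a2 is among them.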

How the data were processed

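The authors deposited whole-number counts per gene and TPM for the same 15767 genes in 12 libraries, 4 per treatment named in the labels. The build GRCm39 and the tools STAR, featureCounts, StringTie, fastp and edgeR are named per the submitters' processing notes. For versions, roles, annotation and strandedness: not given in the sources used here. TPM as deposited equalled counts over a fixed length per gene, within 8.28e-05 on the log2 scale over 9160 genes, so both tables hold the same measurement.

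The test was edgeR 4.0.16 (R 4.3.3) with TMM, filterByExpr, robust quasi-likelihood and all 12 libraries, two-sided. A call needs a p under 0.05 after Benjamini-Hochberg adjustment over 13014 genes. Group was the only term for treatments, and group plus replicate number for numbers. These steps were also run on simulated data with known changes. Alternatives used DESeq2 1.42.0, limma 3.58.1 on log2 TPM, other scaling factors, no filter, a replicate block, numbers 1 to 3 alone, number as a 2-level term, and leaving out each library. Sequences came from RefSeq (GRCm38.p6) and GENCODE M21 (GRCm38) and differ in build from the files. Only counting error is covered by the depth: 3 counts are 0.0404 to 0.0494 CPM per library. No library pair within a group was taken as a copy, with 20.2 to 233 in chi-square per degree of freedom over 18 pairs.

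The genes and lists were chosen with earlier results of these data known. Named were Slc38a6, the ATF4-responsive carriers, up to 10 called genes of smallest p per comparison, the most abundant gene per family, genes left out by the filter, and up to 4 genes of smallest p per list. Ddit4, Atf4, Asns and the E-box were added after values were seen. Some marker genes are not reported here.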

Additional observations from a re-analysis of the deposited data

Results flagged for a closer look

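Among 69 groups of 4 libraries (23 tested genes in 3 treatments), 5 had a library whose gap to its nearest neighbour passed Dixon's 95% critical value, where chance gives about 1 in 20, or 3.45. The lowest library of its group was inhibitor 4 with 101 CPM and control 4 with 103 CPM of Slc36a1. It was also control 4 with 469 CPM of Slc7a1, inhibitor 4 with 37.8 CPM of Slc7a6os, and mimic 1 with 17.3 CPM of Slc38a6. In 4 of the 5 cases the library was numbered 4.

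In a pair of genes the library numbered 4 lay outside numbers 1 to 3 on different sides by treatment, and the difference was not tested. For Slc38a6, inhibitor 4 (14.3 CPM) lay above its group and control 4 (12.9 CPM) below. For Slc7a7, mimic 4 (7.51 CPM) lay above its group, and inhibitor 4 (6.80 CPM) and control 4 (5.89 CPM) below.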

How the results depend on the processing

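The labels do not say that the replicate numbers pair libraries, so the main treatment model held no number. Deviations from group means correlated at 0.386 to 0.471 between libraries numbered 4. Same-numbered libraries 1 to 3 correlated at -0.066 to 0.179. Of all 12 same-numbered pairs, 7 were over 0.1. Libraries numbered 4 thus shared deviations, which the main treatment model counted as spread within groups. With a replicate block, 0 of the 23 genes and 0 genes in all were called in each treatment comparison, and Slc38a2 in inhibitor against control turned to -0.0059. It was -0.0038 and -0.0039 in limma on log2(TPM + 1) and log2(TPM + 0.1), beside 0.0011. DESeq2 called 3 genes in mimic against control, 1 in inhibitor against control and 6 in mimic against inhibitor. Leaving out a library gave 0 to 1 in both mimic comparisons (1 without control 2). Calls of transporters stayed at 0 in all treatment comparisons and alternatives.

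In number 4 against 1 to 3, the called transporters numbered 9 to 13 when 1 library was left out, the higher ones 1 to 4 (4 without control 2; 1 without control 3, mimic 3 or mimic 4) and all genes 3690 to 6589. DESeq2 called 14 of 33 (4 higher) with 37.7% of all genes, adding Slc7a4, Slc38a4, Slc38a5 and Slc38a8, each with at most 18 counts in a library. Limma gave 1 higher with either pseudocount. In number 3 against 1 and 2, DESeq2 called 1 and 139 genes, and leaving out a library 0 to 3 and 0 to 569.

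Signs of uncalled log2 fold changes near 0 turned when 1 library was left out. In mimic against control the ranges were -0.21 to 0.051 for Slc1a4, -0.11 to 0.0016 for Slc1a5, -0.050 to 0.14 for Slc38a2, -0.083 to 0.011 for Slc3a2, -0.088 to 0.10 for Slc7a1, -0.022 to 0.16 for Slc7a11 and -0.12 to 0.0036 for Slc7a5. In inhibitor against control they were -0.21 to 0.053 for Slc1a4, -0.078 to 0.032 for Slc1a5, -0.075 to 0.11 for Slc38a2, -0.052 to 0.028 for Slc3a2, -0.089 to 0.095 for Slc7a1, -0.066 to 0.12 for Slc7a11 and -0.10 to 0.028 for Slc7a5. In number 4 against 1 to 3 they were -0.13 to 0.14 for Slc38a6 and -0.048 to 0.042 for Slc3a2. The cause was not tested. Depth limits the 10 untested genes.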
